A study of Homo sapiens with 2 samples.

Results

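The cytosolic ribosomal protein genes were examined in Huh7 cells, a human hepatocellular carcinoma line, transfected with si-NC, the control siRNA (Huh7-NC), or with si-BRF2, which targets BRF2 (Huh7-si). Total RNA was sequenced as 1 library per condition, so no difference between the conditions has a replicate check. The genes were chosen by name and description, not by their values: a symbol of an RPL, RPS, RPLP or RPSA gene whose description begins as ribosomal protein, without pseudogenes, the ribosomal protein kinases and the Y-linked copies. This rule, set with earlier results of these data known, took 86 of the 61541 genes in the deposited table. Of these, 46 encode core proteins of the large subunit and 31 encode core proteins of the small subunit. A further 8 are paralogs, second copies that encode close relatives of a core protein. The last one, RPS19BP1, encodes a protein that binds RPS19 and is no part of the ribosome.

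Each ribosome is built from 2 subunits of ribosomal RNA and protein. The small subunit reads the mRNA, and the large subunit joins amino acids and releases the growing chain through a tunnel. The proteins are needed in near equal numbers, and their mRNAs are among the most abundant of dividing cells. Most of these mRNAs begin with a C and a run of pyrimidines at the 5′ end, the terminal oligopyrimidine (TOP) sequence, through which the mTOR pathway and LARP1 control their translation. BRF2 is a subunit of the initiation factor with which RNA polymerase III starts transcription of a small class of genes such as U6 snRNA, and ribosomal protein genes are transcribed by RNA polymerase II.

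The target was checked first. BRF2 went from 1281 to 364 reads, which is 56.0 CPM (reads scaled to the library's total on genes) in the control and 16.5 CPM with si-BRF2. Its log2 ratio was -1.77, with a 95% exact interval from -1.94 to -1.60. Reads on genes summed to 22852648 in Huh7-NC against 22089016 in Huh7-si. The Huh7 identity was checked with liver genes: ALB had 126940 and 113860 reads and AFP had 107941 and 123538 reads. Among markers of other cells, PTPRC, CD3E, CDH5 and VWF had 5 reads or fewer in each library. The other leukocyte markers, LYZ and CD68, had 10663 and 9034 reads and 235 and 244 reads, and PECAM1, an endothelial marker, had 60 and 63 reads. The 4 stellate cell and fibroblast markers summed to 42.6 and 96.9 CPM, mostly from COL1A2 with 737 and 1687 reads, and the 12 liver markers to 20555 and 20861 CPM. Fewer cells of a type and less RNA per cell cannot be told apart in such bulk samples. Intervals of single genes and of shares are Clopper-Pearson intervals, and all intervals here cover counting error only and compare these 2 libraries, not the conditions.

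The sequence at the transcription start was examined because such a sequence is a known feature of the family. RefSeq start sites (GRCh38.p14) were found for 68 of the 86 genes. A C at the start followed by at least 4 bases that are each C or T, read on the strand of the gene at any listed start, was present in 47 of those 68 (69.1%). Among core genes the count was 46 of 62 (74.2%), and it was similar for the large subunit (28 of 38) and the small subunit (18 of 24). Among all 27305 symbols with a listed start, 5.14% had it. The windows below run from 15 bases before the start to 15 bases from the start on, 5′ to 3′, with the C and its pyrimidine run in capitals. The first group holds core genes from both ends of the order of change, and the second holds core genes beside their paralogs.
RPL31 (chr2:101002274-101002303, plus strand): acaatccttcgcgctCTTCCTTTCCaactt
RPS19 (chr19:41860240-41860269, plus strand): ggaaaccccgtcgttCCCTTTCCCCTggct
RPS10 (chr6:34426055-34426084, minus strand): ccgcgcatgctccttCCTTTCCagccccgg
RPLP0 (chr12:120201097-120201126, minus strand): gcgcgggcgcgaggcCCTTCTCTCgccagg
RPLP2 (chr11:809952-809981, plus strand): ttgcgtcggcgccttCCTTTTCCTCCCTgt
RPL12 (chr9:127451392-127451421, minus strand): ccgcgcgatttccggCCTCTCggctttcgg
RPS25 (chr11:119018329-119018358, minus strand): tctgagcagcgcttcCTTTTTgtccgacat
RPL41 (chr12:56116618-56116647, plus strand): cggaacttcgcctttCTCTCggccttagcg
RPL22 (chr1:6199581-6199610, minus strand): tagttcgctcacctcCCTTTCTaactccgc
RPL22L1 (chr3:170870181-170870210, minus strand): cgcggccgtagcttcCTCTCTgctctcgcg
RPL26 (chr17:8383179-8383208, minus strand): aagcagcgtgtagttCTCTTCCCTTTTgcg
RPL26L1 (chr5:172958714-172958743, plus strand): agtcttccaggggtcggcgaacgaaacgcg
RPS27 (chr1:153990747-153990776, plus strand): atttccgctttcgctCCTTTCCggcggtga
RPS27L (chr15:63157463-63157492, minus strand): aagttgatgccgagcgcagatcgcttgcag
RPL36A (chrX:101390996-101391025, plus strand): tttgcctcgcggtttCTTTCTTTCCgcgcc
RPL36AL (chr14:49620612-49620641, minus strand): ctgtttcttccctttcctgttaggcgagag
RPL7L1 (chr6:42879601-42879630, plus strand): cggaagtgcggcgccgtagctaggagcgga
The core genes shown have runs of 5 to 13 bases, RPL41 the shortest and RPLP2 the longest. Of 6 paralogs with a listed start, only RPL22L1 has such a run.

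Ribosomal protein mRNAs made up a large part of both libraries. They held 1536581 reads in Huh7-NC, 6.72% of all reads on genes (95% interval 6.71% to 6.73%). In Huh7-si they held 1035613 reads, 4.69% of all reads (95% interval 4.68% to 4.70%). The log2 ratio of the shares was -0.52, a difference larger than counting error. Per TPM, the authors' measure of abundance scaled for length and library, the share was 18.4% in Huh7-NC against 14.2% in Huh7-si. The large subunit went from 4.22% to 2.94% of reads and the small subunit from 2.45% to 1.70%.

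The levels of single genes were spread widely within the family. On the TPM scale, RPL41, a very short protein of the large subunit, was the most abundant with 9305 in Huh7-NC against 7683 in Huh7-si. Also high in both libraries were RPS27 (7092 and 5333), RPL35 (5422 and 3759), RPS2 (4405 and 3635) and RPL37 (4100 and 3960). The median core gene had a TPM of 2084 in Huh7-NC against 1546 in Huh7-si. The lowest core gene was RPL9, at 77.6 and 68.3. From RPL41 to RPL9 the TPM of core genes spanned 120-fold in Huh7-NC and 112-fold in Huh7-si. Without RPL9, for which a pseudogene row has more reads than the gene's own, the span was 29.4-fold and 26.7-fold. The order of the core genes was much alike in both libraries (Spearman's rho 0.99 over 77 genes, which share library, length and annotation). Among all 86 genes RPL31 moved down most, from rank 50 to rank 65.

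**Figure D1:**
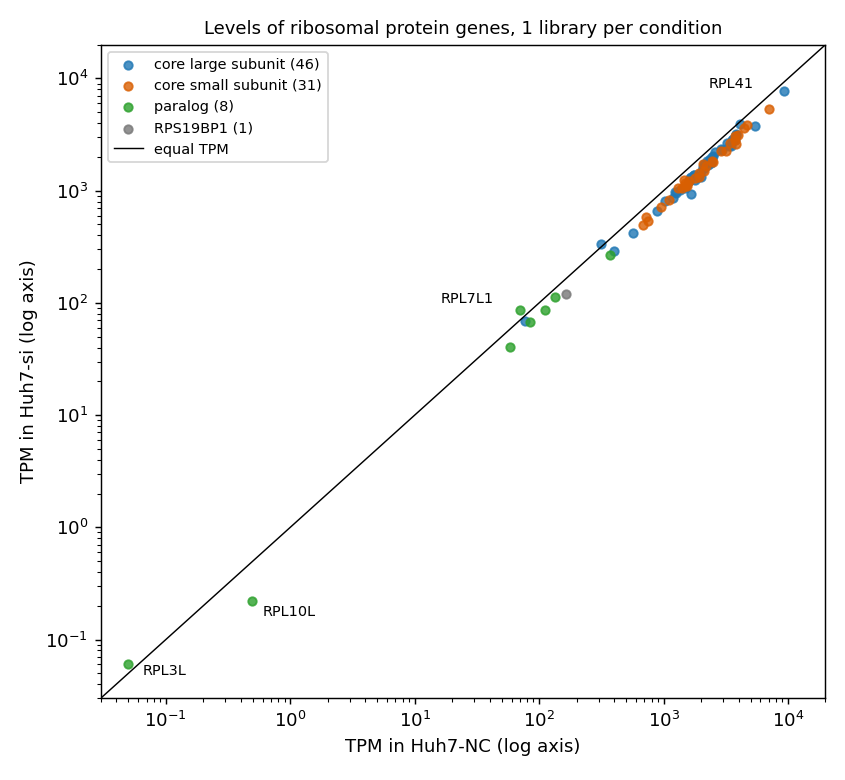
TPM of each of the 86 genes in Huh7-NC (horizontal, log axis) and Huh7-si (vertical, log axis), 1 point per gene, with the line of equal TPM. All core genes other than RPL22 lie below the line, the paralogs RPL3L and RPL10L lie far below the rest in level, and RPL22, RPL7L1 and RPL3L (2 reads in each library) lie above the line.

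Every ribosomal protein gene that could be compared had a lower CPM in Huh7-si. Of the 86 genes, 84 had at least 10 reads over both libraries, and RPL3L and RPL10L, with 2 and 2 reads and with 5 and 2 reads, did not. All 84 had a log2 ratio of CPM below 0, with the whole 95% interval of each below 0, where 35.2% of all 17921 genes tested were lower. The median log2 ratio was -0.53, or 0.692-fold, beside 0.21 for all genes tested and -0.01 for 3966 other protein-coding genes with at least as many reads as the least read core gene. At least 1.5-fold lower were 21 of the 84 genes, beside 5.60% of all genes tested. None was higher by 1.5-fold, beside 28.6% of all genes, and none was lower by 2-fold, beside 1.72%. The 21 genes were RPL31, RPS19, RPS10, RPL7, RPLP0, RPLP2, RPL39L, RPL23A, RPS3, RPS3A, RPS15, RPL29, RPL35, RPL36A, RPL27A, RPS9, RPL36AL, RPL36, RPS4X, RPS19BP1 and RPL7A. With the reads of pseudogenes added to their parent genes, RPL23A (-0.43) and RPL36A (-0.58) no longer passed and 19 remained. Many others lay just outside that limit, RPL3 at -0.58 and RPS23 at -0.58 the nearest, and the limit sits within the body of the family.

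The count at 1.5-fold depended on how the libraries were scaled. Scaling by TMM, which moved the ratio of every gene by -0.22, put 81 genes at or past 1.5-fold lower, beside 13.8% of all genes. On the TPM scale only RPL31 and RPLP2 (-0.84 and -0.59) passed it, beside 4.03% of all genes. Relative to the median of all genes tested, the members' median was -0.74 under each scaling by a library factor and -0.78 on the TPM scale. A library factor shifts every gene alike, so the value of -0.74 could not differ between those scalings. The direction was the same in 84 of 84 genes under each such scaling, and in 82 of 84 on the TPM scale. The alternative factors shifted the ratios by -0.03 to -0.22, so genes already below 0 could not change direction under them.

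The members were closer to each other than other genes of mixed length were. Their log2 ratios had an SD of 0.11, beside 0.42 among the 3966 other protein-coding genes with at least the reads of the least read core gene. Those 3966 genes had lengths from 207 to 24709 bases, and the ratio rose with length, as given below. The 78 mitochondrial ribosomal protein genes had an SD of 0.19. Under 1000 bases, the quartiles of the ratio were -0.59 and -0.46 for the members. They were -0.53 and -0.22 for other protein-coding genes of that length with at least 1000 reads. The 28 mitochondrial ribosomal protein genes of that length had quartiles of -0.56 and -0.41, a range nearly as narrow as that of the members. Of the 84 members, 81 lay within 0.2 of the family's median. Large and small subunit genes had the same median of -0.53, with 11 of 46 and 7 of 31 at least 1.5-fold lower, beside 5.60% of all genes tested. Counting error did not cover the remaining spread, since the interval of 28 genes lay wholly below the family's median and that of 29 genes wholly above it. Replicate variation could not be measured with 1 library per condition.

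**Figure D2:**
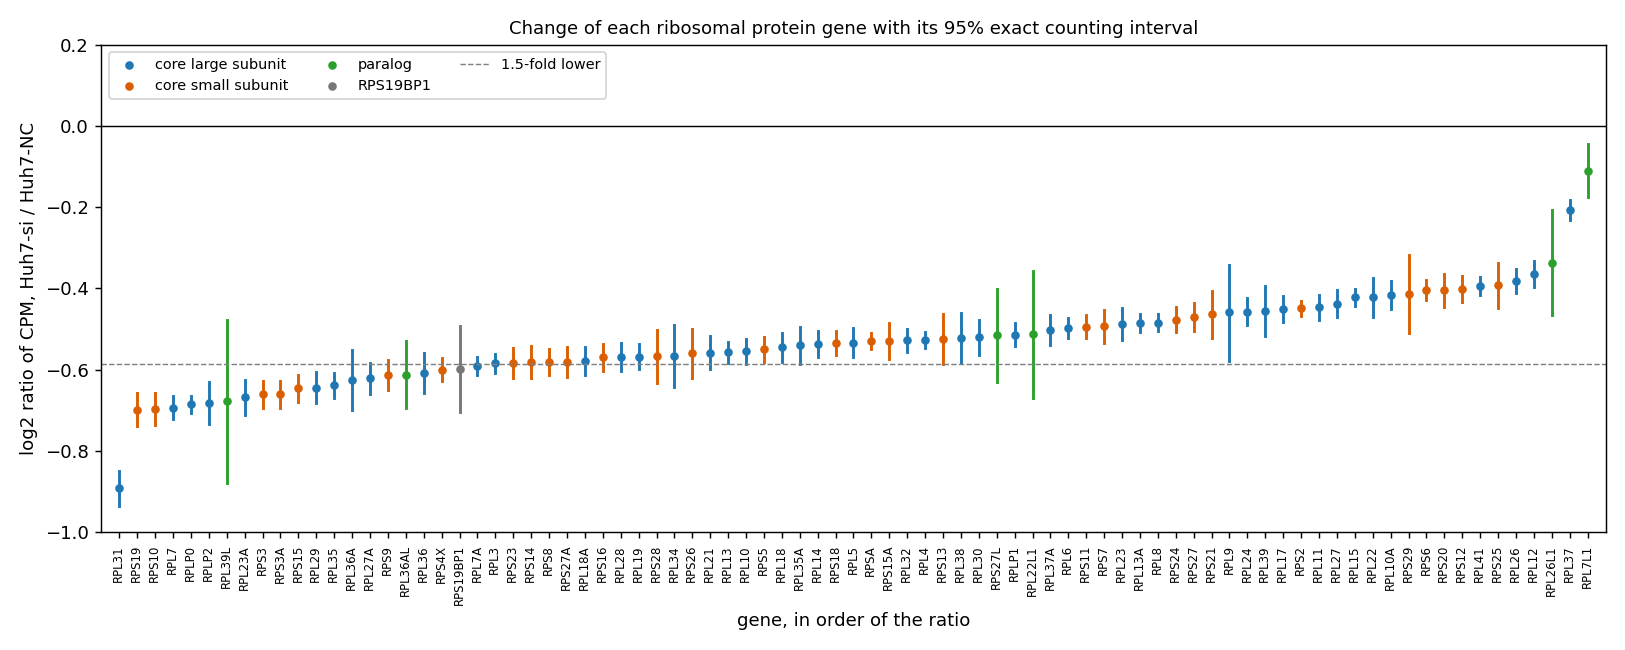
Log2 ratio of CPM (Huh7-si over Huh7-NC) of 83 of the 84 genes tested, in order of the ratio, with 95% exact counting intervals as vertical lines, colored by subunit, and the 1.5-fold limit dashed. All points lie below 0, RPL31 stands lowest at -0.89, and RPL37 and RPL7L1 stand highest at -0.21 and -0.11.

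RPL31, which lies beside the exit of the tunnel and is one of the genes mutated in Diamond-Blackfan anemia, stood apart at the low end. It had 555 CPM in Huh7-NC against 299 CPM in Huh7-si, a log2 ratio of -0.89 (-0.93 to -0.85). Its interval did not overlap that of any other core gene. The TPM ratio was -0.84, and the next lowest by CPM among all members was RPS19 at -0.70. The gene lies on chromosome 2 and overlaps TBC1D8 on the other strand, which had 1184 reads in Huh7-NC against 2155 in Huh7-si. Whether the counting used strand is not given in the sources used here, so reads of both genes in the overlap cannot be told apart.

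The P stalk is the arm of the large subunit that recruits translation factors, with RPLP0 as base and RPLP1 and RPLP2 as its tips. RPLP0 had 2190 CPM in Huh7-NC against 1362 CPM in Huh7-si (log2 ratio -0.69, interval -0.71 to -0.66). RPLP2 had 354 and 220 CPM (-0.68, -0.73 to -0.63). RPLP1 had 1130 and 791 CPM (-0.51, -0.54 to -0.49), and RPL12, which lies at the foot of the stalk, had 765 and 594 CPM (-0.36, -0.40 to -0.33). The 4 genes of this one structure thus ran from near the lowest to near the highest ratio of the family, with the intervals of RPLP0 and RPLP2 apart from that of RPLP1 and all 3 apart from that of RPL12.

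Around the tunnel and the catalytic center the ratios covered a similar range. The 9 genes of the exit tunnel and its rim had a median of -0.53, with RPL31, RPL23A (-0.67) and RPL35 (-0.64) past 1.5-fold, though RPL23A no longer passed it with pseudogene reads added. RPL22 (-0.42) and RPL26 (-0.38) were the highest of these 9. RPL3, RPL10 and RPL8, which reach toward the peptidyl transferase center, were at -0.58, -0.55 and -0.48. RPL5 and RPL11, which form a particle with 5S rRNA that can bind MDM2, were at -0.53 and -0.45. None of these last 5 genes passed 1.5-fold. That limit was passed by 21 of the 84 members and by 5.60% of all genes tested.

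RPL37 was the core gene that changed least. It had 1317 CPM in Huh7-NC against 1141 CPM in Huh7-si, a log2 ratio of -0.21 (-0.23 to -0.18), and by TPM it was at 4100 and 3960. Its interval lay wholly above that of each other core gene. RPL12 (-0.36), RPL26 (-0.38), RPL41 (-0.39) and RPL10A (-0.42) came next in the large subunit. RPL22 had 380 and 283 CPM (-0.42), but its TPM was 316 in Huh7-NC against 334 in Huh7-si. For RPL22 the reads behind each unit of TPM fell by 0.55 on the log2 scale, more than for any other member, beside a median of -0.19 over the members and -0.23 over other protein-coding genes.

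In the small subunit, RPS19 and RPS10 were lowest. RPS19, the gene most often mutated in Diamond-Blackfan anemia, had 592 CPM in Huh7-NC against 365 CPM in Huh7-si (-0.70, -0.74 to -0.66). RPS10 had 590 and 364 CPM (-0.70, -0.74 to -0.66). RPS3, which lines the mRNA entry, had 878 and 555 CPM (-0.66), RPS3A had 822 and 520 CPM (-0.66), and RPS15, near the decoding site, had 835 and 534 CPM (-0.65). Toward the other end, RPS25 had 271 and 206 CPM (-0.39), and RPS12, RPS20 and RPS6 were each at -0.40. RPS6, the substrate of the S6 kinases, had 1355 and 1024 CPM. The 8 genes along the mRNA channel had a median of -0.57, from RPS3 at -0.66 to RPS2 at -0.45, and 2 of them passed 1.5-fold. The 18 genes on the Diamond-Blackfan list had a median of -0.51, with RPL31 the lowest, and 4 of them passed 1.5-fold. Both counts were near the family's own share, 21 of 84 genes, beside 5.60% of all genes tested.

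The paralogs were far less abundant than most core genes, and 6 of 8 could be tested. RPL36AL had 135 CPM in Huh7-NC against 88.4 CPM in Huh7-si (-0.61). By the rows of the 2 genes it supplied 48.1% of the TPM of the pair with RPL36A in each library. That split is uncertain, because pseudogenes held 36.4% and 38.4% of the reads of RPL36A and its pseudogenes together. The readthrough gene RPL36A-HNRNPH2 had a further 2603 and 2416 reads. RPL22L1 had 36.5 and 25.6 CPM (-0.51) and made up 21.1% of the TPM of its pair with RPL22 in Huh7-NC against 16.9% in Huh7-si. Those shares rest on the TPM of RPL22, for which the reads per TPM fell by 0.55 on the log2 scale. By CPM the log2 difference between paralog and core gene was -0.09, with an interval from -0.25 to 0.07. RPS27L, a p53 target, had 67.3 and 47.1 CPM (-0.51), and RPL39L, known from testis and tumors, had 24.1 and 15.1 CPM (-0.68, -0.88 to -0.48). RPL26L1 had 49.1 and 38.9 CPM (-0.34). In these 3 pairs the paralog supplied under 4% of the TPM.

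RPL7L1, a nucleolar relative of RPL7 that takes part in making the large subunit, had the highest log2 ratio of CPM among the paralogs tested. It had 172 CPM in Huh7-NC against 159 CPM in Huh7-si (-0.11, -0.18 to -0.04), while RPL7 had 1186 and 733 CPM (-0.69). The log2 difference between paralog and core gene was 0.58 (0.51 to 0.65) for RPL7L1 and -0.22 (-0.43 to -0.02) for RPL39L. For RPL36AL, RPL26L1, RPS27L and RPL22L1 the difference was 0.01, 0.05, -0.04 and -0.09. Each had an interval that held 0, the widest from -0.25 to 0.07. The value for RPL36AL rests on the row of RPL36A alone, without its pseudogene and readthrough reads. On the TPM scale RPL7L1 went from 69.7 to 86.3. At 3769 bases it has one of the longer entries of the family. Less protein-coding genes of like length it was at -0.27, the lowest of the 6 paralogs, and less those of like reads per TPM it was at -0.19, beside a paralog median of -0.15.

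The change was read against gene length, because it followed length among all other genes. Over the 7208 non-member protein-coding genes that had 1000 reads or more, the log2 ratio rose with the length in the deposited table (Spearman's rho 0.63 across genes of the same 2 libraries). Of 482 such genes under 1000 bases that are not mitochondrial ribosomal protein genes, 89.6% were lower in Huh7-si, with a median of -0.41, and 16.8% were at least 1.5-fold lower. The 56 members under 1000 bases had a median of -0.53, and 15 of them (26.8%) were at least 1.5-fold lower. Of 5213 other such genes of 2000 bases or more, 32.1% were lower, with a median of 0.18. The 14 members of that length had a median of -0.53.

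The table's length may count exons that Huh7 cells do not use, so the members were also placed by their reads per TPM, which rises with the length by which the authors divided. By this measure 65 of the 84 members fell in the lowest of 20 equal bins of the other genes, where those genes had a median log2 ratio of -0.46. RPL37 is listed with 7573 bases and yet fell in that bin. Less the median of other genes in the same bin, the members' median was -0.11 (middle range -0.16 to -0.03), 67 of 84 were below 0, beside 49.9% of the other genes, and none was 1.5-fold lower, beside 1.93%. With bins of the listed length it was -0.16, with 75 of 84 below 0 and 4 (4.76%) at least 1.5-fold lower, beside 49.9% and 2.91% of the other genes. RPL31 (-0.43), RPS4X (-0.35), RPL7 (-0.32), RPLP0 (-0.31) and RPL23A (-0.30) lay farthest below genes of like reads per TPM, and RPL37 lay 0.25 above them. Length and abundance were not separated, and their part in the lower ratios was not tested.

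**Figure D3:**
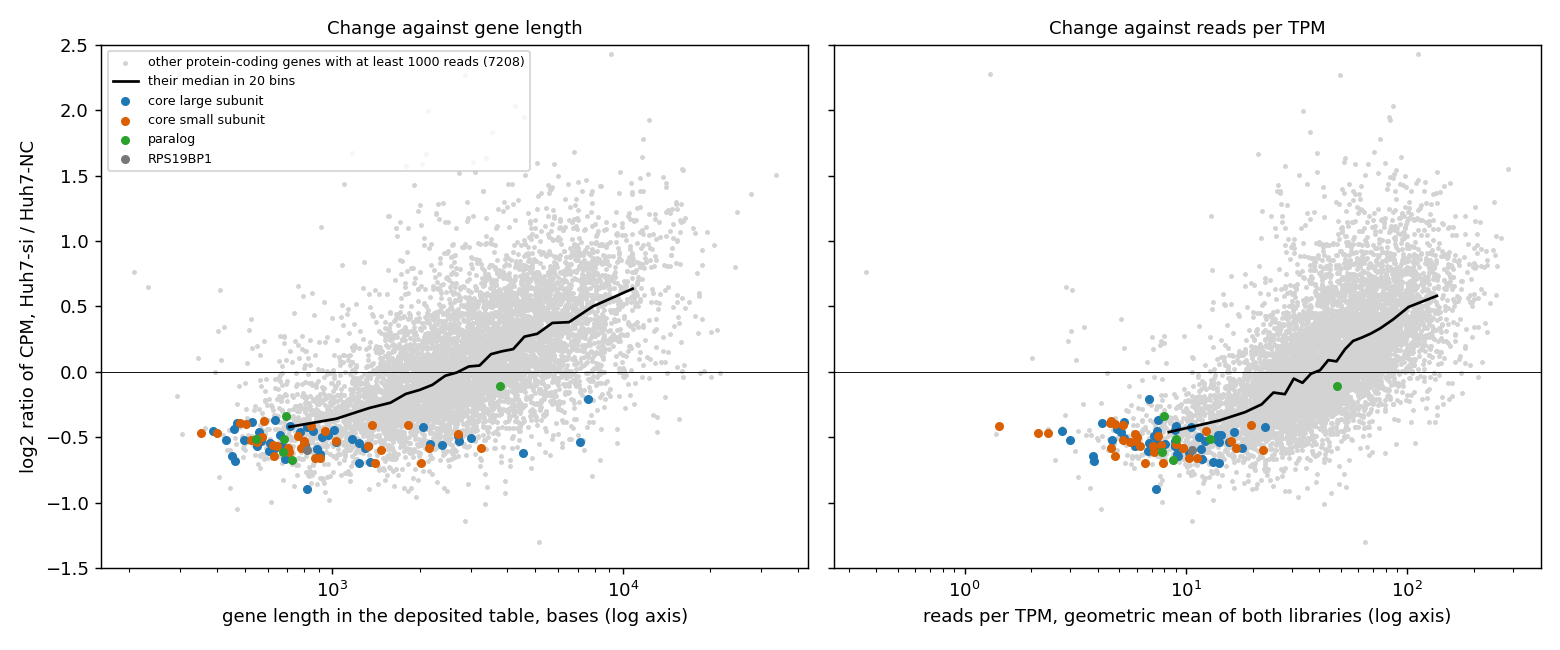
Log2 ratio of CPM (Huh7-si over Huh7-NC) against gene length in bases (left, log axis) and against reads per TPM (right, log axis) for 7208 other protein-coding genes (grey), with their median in 20 bins (black line) and the 84 members in color. Other short genes also lie below 0, most members lie slightly below the black line on the right, and 2 grey points fall outside the vertical range.

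Genes with related roles were set beside the family. FAU, which encodes a ribosomal protein fused to a ubiquitin-like protein, and RACK1, a small subunit scaffold, were left out by the rule, and their ratios were -0.50 and -0.52. The 78 mitochondrial ribosomal protein genes, whose products build the separate ribosome of mitochondria, had a median of -0.44. Of these, 76 were lower and 13 were at least 1.5-fold lower, beside 35.2% and 5.60% of all genes tested. The 78 genes ran from MRPL23 (1219 and 593 reads, -0.99) and MRPL19 (-0.79) to MRPS31 (0.13) and MRPS25 (0.17). Less genes of like reads per TPM, their median was -0.11, the same as that of the cytosolic family at 2 decimals. A start with a C and a pyrimidine run was found in 6 of 69 of them (8.70%), beside 7.22% of the protein-coding genes tested that have a listed start.

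Other mRNAs known to carry a TOP sequence, which encode translation factors and related proteins, had a median of -0.33. Of 17 such genes 15 were lower and none was 1.5-fold lower, beside 35.2% and 5.60% of all genes tested. Less genes of like reads per TPM their median was -0.12, beside -0.11 for the ribosomal protein genes. EEF1B2 (-0.58) and EEF1G (-0.50) were lowest and EIF2S3 (0.11) and PABPC1 (0.19) highest. Within the core genes, the 46 with the start sequence had a median of -0.55 and the 16 without it of -0.51. Among other protein-coding genes the 760 with it had a median of 0.07 and the 10332 without it of 0.15.

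The 37 ribosome assembly factors had a median of -0.25, where all genes had a median of 0.21. Of these factors 28 were lower and 3 were at least 1.5-fold lower, beside 35.2% and 5.60% of all genes tested. On the TPM scale the list's median was -0.01, beside 0.39 for all genes, and less genes of like reads per TPM it was -0.14, beside -0.11 for the family. NCL (-0.66), the nucleolar protein nucleolin, and NHP2 (-0.61), of the H/ACA particles, were lowest, and HEATR1 (0.50) and MDN1 (1.10) were highest. Subunits and factors of RNA polymerase I, which makes most ribosomal RNA, had a median of 0.02 over 14 genes, from POLR1H (-0.42) and POLR1G (-0.30) to POLR1A (0.53) and TAF1C (1.23). That median turned to -0.20 under TMM and to -0.01 when the members' own reads were left out of the totals. All genes tested had medians of -0.02 and 0.18 under these scalings. On the TPM scale the RNA polymerase I median was 0.44, beside 0.39 for all genes. A list of 9 genes held regulators of these mRNAs, among them mTOR and its targets and proteins of the LARP family. It also held MDM2 (0.15), a partner of free ribosomal proteins. Of the 9 genes, EIF4EBP1 (-0.79) and EIF4EBP2 (-0.01) were lowest and LARP4B (0.39) and MTOR (0.88) highest. Their median was 0.29 and turned to -0.11 less genes of like reads per TPM.

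**Figure D4:**
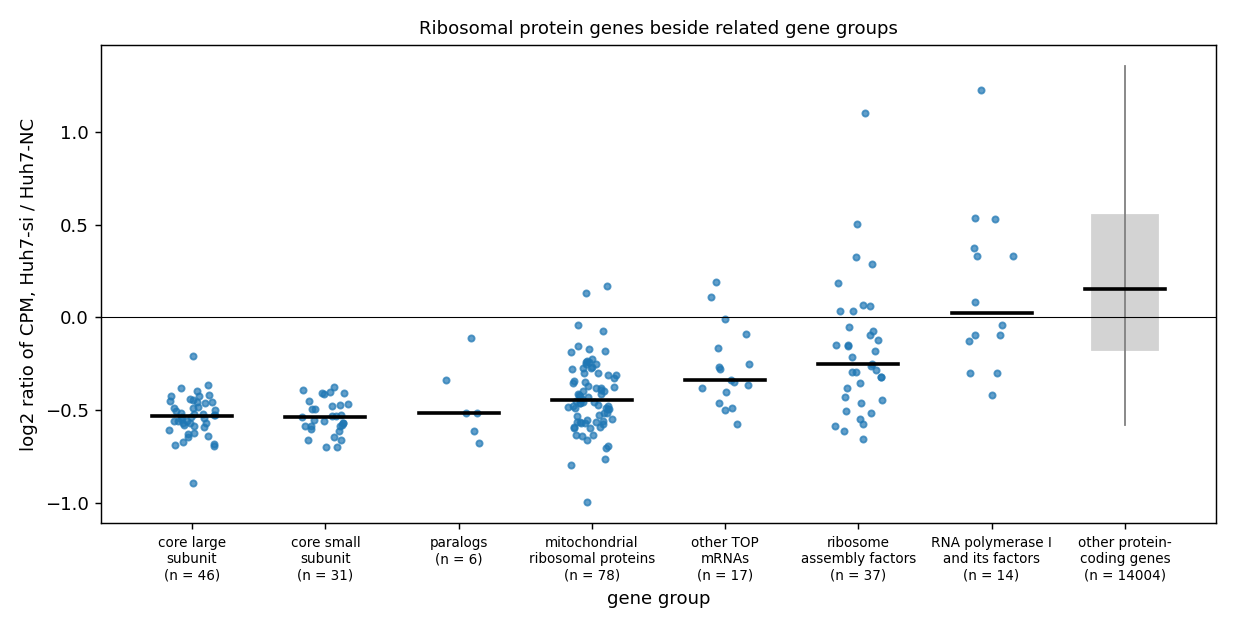
Log2 ratio of CPM (Huh7-si over Huh7-NC) of each gene tested in 7 gene groups, with the median of each as a black bar, beside other protein-coding genes (grey box, middle 50%; line, 5th to 95th percentile; bar, median). Both subunits sit at -0.53 with little spread, mitochondrial ribosomal proteins at -0.44, other TOP mRNAs at -0.33, assembly factors at -0.25 and RNA polymerase I genes at 0.02.

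Members also have many copies in the genome, and reads shared between them were not measured. The table lists 2280 ribosomal protein pseudogenes, of which 384 had reads, and together they held 45726 reads in Huh7-NC against 33868 in Huh7-si. For the median member, pseudogenes held 0.02% of the reads of gene and pseudogenes together in Huh7-NC and 0.04% in Huh7-si. In Huh7-NC they held over 10% for 5 members. For 3 members, RPL9, RPL23A and RPS28, the pseudogenes held over 50% of the reads of gene and pseudogenes together in Huh7-NC. The row of RPL9 had 1427 and 1003 reads, while a row described as an RPL9 pseudogene (ENSG00000237550) had 12998 and 9087 reads. RPL23A had 11686 and 7110 reads and its pseudogene RPL23AP42 had 14844 and 11663 reads. With pseudogene reads added to the parent, RPL23A moved from -0.67 to -0.43 and the members' median stayed at -0.53. The low TPM of RPL9 and the low ratio of RPL23A are therefore uncertain.

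The family is spread over the genome and often hosts small RNAs. The 86 genes lie on 21 chromosomes, with 12 on chromosome 19 and 4 on X (GENCODE 29, GRCh38). Genes of small nucleolar RNAs, which guide the modification of ribosomal RNA, lie within 28 of the 86 (32.6%), beside 1.53% of protein-coding genes tested. Members with and without such a gene had medians of -0.53 and -0.54. Of the members, 37 overlap another gene, and in 11 the other gene had over 10% of the member's reads, among them RPL36A, whose readthrough gene RPL36A-HNRNPH2 had 2603 and 2416 reads.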

How the data were processed

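Huh7 cells with si-NC and with si-BRF2 were compared, 1 library each, grouped by the titles in the labels. The authors deposited an estimated count of reads and a TPM value per gene and library, with the length of each gene. The submitters' processing notes name TopHat2 2.0.12, Bowtie2 2.0.6 and GRCh37; the counting tool, annotation and strandedness are not given in the sources used here. The authors' own columns of fold change, p-value and significance were not used. Reads on genes summed to 22852648 (Huh7-NC) and 22089016 (Huh7-si).

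Log2 ratios were calculated from estimated counts per total reads with a pseudocount of 0.5 reads, for genes with at least 10 reads in all. Intervals are 95% exact binomial (Clopper-Pearson) intervals on rounded counts, and those of a difference between genes use the normal approximation to the Poisson error of the 4 counts. A count of 0 allows up to 3 reads, or 0.131 and 0.136 CPM. No test across genes was made, and folds of 1.5 and 2 mark sizes. Named were BRF2, the paralogs, members past 1.5-fold, the 5 lowest and highest core genes of each subunit with at least 1000 reads, the 3 most abundant of each, and the ends of each list. For 2 of the genes so named, values are not reported here. Members and lists were chosen with earlier results of these data known. Alternatives were the scaling (edgeR's TMM and upper quartile, DESeq2's median of ratios, totals without the members), TPM, a pseudocount of 1 CPM, filters (none, 100 reads), a smaller fold limit, pseudogene reads added to parents, and genes of like length in 20 bins. Added after seeing the data were bins over other protein-coding genes with at least 1000 reads, by length and by reads per TPM. Positions and gene types came from GENCODE 29 (GRCh38), which held 94.8% of the identifiers, and start sites from RefSeq (GRCh38.p14). The scripts were tested on simulated data. Python 3.11.15, NumPy 2.4.6, pandas 2.3.3, SciPy 1.17.1, matplotlib 3.10.9, R 4.3.3, edgeR 4.0.16 and DESeq2 1.42.0 were used.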

Additional observations from a re-analysis of the deposited data

How the results depend on the processing

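No paired analysis was possible because each condition has 1 library. The median log2 ratio of the members (-0.53) was -0.76 with TMM, -0.74 with DESeq2's median of ratios, -0.72 with the upper quartile, -0.56 with totals less the members, -0.39 by TPM, -0.53 with pseudogene reads added, -0.46 less all genes of like length, -0.16 less protein-coding genes of like length with at least 1000 reads and -0.11 less those of like reads per TPM. In the same order it was -0.76, -0.74, -0.72, -0.56, -0.36, -0.52, -0.47, -0.17 and -0.11 for the core large subunit, and -0.76, -0.74, -0.72, -0.57, -0.41, -0.53, -0.44, -0.15 and -0.10 for the core small subunit. For mitochondrial ribosomal protein genes (-0.44) it was -0.67, -0.65, -0.63, -0.48, -0.28, -0.37, -0.14 and -0.11 in that order without the pseudogene reads, and -0.42 with a pseudocount of 1 CPM. The direction was kept under each of these.

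Members at least 1.5-fold lower (21) numbered 81 with TMM (13.8% of all genes tested), 79 with the median of ratios (13.1%), 76 with the upper quartile (12.1%), 36 with totals less the members (6.62%), 2 by TPM (4.03%), 19 with pseudogene reads (5.59%, without RPL23A and RPL36A), 4 less protein-coding genes of like length (5.0%) and 0 less those of like reads per TPM (3.98%). Less all genes of like length they numbered 20, beside 8.19% of all genes. At the smaller fold limit, a log2 ratio of -0.32, they numbered 82, beside 15.6% of all genes. Members at least 2-fold lower numbered 0 under the main scaling, beside 1.72% of all genes tested. They numbered 1 with TMM, 1 with the median of ratios, 1 with the upper quartile and 1 with no filter (RPL10L, 5 and 2 reads). They numbered 2 less all genes of like length and 1 less protein-coding genes of like length. The share of all genes at 2-fold is not given for these other settings, so these counts do not set the members apart. The number at least 1.5-fold higher was 0 under each setting run. The scalings shift every gene alike, so their moves follow from their construction. The length settings subtract the median of genes in the same bin, and their moves depend on how those genes changed. In the lowest bin by reads per TPM, which held 65 members, that median was -0.46.

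The members' share of reads (6.72% and 4.69%) was 18.4% and 14.2% by TPM, and 6.92% and 4.84% with pseudogene reads. BRF2 (-1.77) was at -1.99 with TMM, -1.97 with the median of ratios, -1.95 with the upper quartile and -1.59 by TPM. With 1 library per condition, culture and library variation were not measured, and the intervals do not include it.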
